A study of Mus musculus with 16 samples.

Results

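The cells described here are splenic T cells of mice bearing MC38 tumors in which Cd4 RNA was counted and Foxp3 RNA was not. They were selected on measured values. A unique molecular identifier (UMI) stands for 1 captured RNA molecule, and a barcode of the 4 CD45+ spleen libraries was taken when it held at least 1 UMI over Cd3e, Cd3d and Cd3g, at least 1 of Cd4, 0 of Foxp3, 0 over Cd8a and Cd8b1, 0 of Cd79a and at most 3 of Lyz2. The gate took 424 cells, of 8686 barcodes in those 4 libraries and 37609 in all 16 libraries of the series. The genes of the gate describe the choice, so no test on them is given. Lef1 and Tcf7, transcription factors of resting T cells, are named as markers of these cells and were not used to choose them. With every cell thinned at random to 1500 UMIs, Lef1 was found in 38.4% of the CD4 cells and 0.702% of splenic B cells, and Tcf7 in 38.6% and 0.0685%. Unthinned, at median depths of 4911.5 UMIs in the CD4 cells and 4264 in the B cells, the shares were 63.9% and 2.10% for Lef1 and 69.3% and 0.290% for Tcf7. Both markers were therefore far above the level that free RNA gave in B cells.

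Aire+/+ littermates and Aire-/- mice, 8 weeks of age and of the C57BL/6 background, were implanted with MC38, a mouse colon adenocarcinoma line, and given either an Isotype Control antibody or an antibody to PD-1 (aPD1). On day 19, spleens and tumors were taken, cells were sorted for CD45 or for CD8, and droplet RNA libraries were made. The mice of a condition were pooled, so each combination of genotype, treatment, tissue and sort is 1 library with no replicate. Values are given throughout in the order Aire+/+ Isotype Control, Aire+/+ aPD1, Aire-/- Isotype Control and Aire-/- aPD1. In this order the CD45+ spleen libraries held 2119, 2117, 2048 and 2402 barcodes and 12181204, 10987966, 11227536 and 12636196 UMIs. They gave 69, 88, 138 and 129 of the CD4 cells, with 439114, 452427, 739210 and 632345 UMIs in sum. The median CD4 cell had 5489, 4841.5, 5136 and 4545 UMIs, so depth per cell was similar in the 4 libraries. No barcode of a chosen cell occurred in more than 1 of the 4 libraries; doublets were not called, and cells with several markers of B cells or monocytes were left out only in an alternative. Of Aire itself, the gene missing in the Aire-/- mice, 0 UMIs were counted in the CD4 cells of every library, so these cells cannot check the genotype. The splenic B cells held 2, 5, 4 and 0 Aire UMIs, 4 of them in Aire-/- Isotype Control, which are too few for a check.

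CD4 T cells are positively selected in the thymus on MHC class II, where the transcription factor ThPOK, encoded by Zbtb7b, commits them to the helper lineage. Aire lets thymic epithelial cells display proteins of other tissues, which removes T cells that bind them strongly. In the spleen, naive CD4 cells recirculate through the T cell zones, and cells that have met antigen persist as memory cells, help B cells in follicles or act on other cells through cytokines.

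Most of the gate rested on few Cd4 molecules. Of the 424 cells, 207 held exactly 1 Cd4 UMI and 217 held more, while 7 held only 1 UMI over the Cd3 genes and the median in a library lay between 13 and 16. Just outside, 400 barcodes missed the gate only because Cd4 had 0 UMIs, in the 4 libraries 71, 114, 102 and 113. A further 22 lacked a Cd3 UMI, 28 had 1 Foxp3 UMI, 29 had 1 Cd8 UMI and 10 had 1 Cd79a UMI. No cell held 3 Lyz2 UMIs and no barcode was kept out by 4, since only 2 of the 424 cells held Lyz2 at all. Whether a T cell fell inside or outside the gate thus often turned on a single Cd4 molecule. In the 4 spleen libraries sorted for CD8, where CD4 cells should be few, the same gate took 1 of 10856 barcodes. The gate also asks for 0 Cd8 UMIs, so this low count was largely set by that condition. It does not show how often the gate took other cells in the CD45+ libraries.

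RNA of other cell types was present at low levels in most of the sums. Of the 15 B cell markers, 13 had a UMI in the CD4 cells, and Ebf1 and Pax5, which define B cells, had 0. Their summed level was 5181, 387, 391 and 1249 UMIs per 1000000 of all UMIs of these cells (CPM) in the 4 libraries, and Cd74, the invariant chain of MHC class II, was the most abundant of them. In the Aire+/+ Isotype Control and the Aire-/- aPD1 library, 2 cells each had at least 10 Cd74 UMIs, and these held 98.4% and 85.0% of the Cd74 of their library and 7.56% and 4.16% of its UMIs. An alternative chosen after seeing the data left out every cell with at least 10 Cd74 UMIs, that is, these 4 cells and also cells of the gates compared below, which kept 18, 32, 22 and 31 of 22, 35, 28 and 34 tumor CD4 cells and 139, 148, 148 and 183 of 140, 151, 148 and 184 splenic CD8 cells. It changed no count of genes below by more than 1.5 times. Ighm, the heavy chain of IgM, was found at 230.0, 267, 296 and 327 CPM against 214, 226, 216 and 248 in splenic CD8 T cells and 2664, 1447, 1789.9 and 1731 in B cells. Its level was alike in both T cell gates and far lower than in B cells. Of 12 monocyte markers 10 had a UMI, at 715, 274, 254 and 409.6 CPM in sum with Ctss the most abundant. All 11 dendritic cell markers had one, at 107, 61.9, 9.47 and 53.8 CPM, with Ccr9 the most abundant. Natural killer (NK) cell markers had 100.2, 106, 62.2 and 111 CPM (7 of 8, led by Klrd1), those of innate-like T cells 269, 228, 242 and 457 (7 of 8, led by Il2rb) and those of plasma cells 61.5, 53.0, 62.2 and 72.7 (5 of 6, led by Xbp1). The most abundant gene is that of the 4 libraries together, and single libraries differed, since Ccr9 had 4.55, 17.7, 9.47 and 34.8 CPM and Klrd1 47.8, 13.3, 17.6 and 47.4. The part of these cell types in the results below was not tested, except that the main counts were taken again without cells holding 2 or more of 11 B cell or monocyte markers or much RNA. That left out 173 of the 424 cells, 167 of them for the markers, of which Ighm was found in 273 cells and Ctss in 237. It kept 40, 55, 79 and 77 splenic CD4, 71, 82, 64 and 96 splenic CD8 and 13, 25, 15 and 20 tumor CD4 cells, so which cells were left out and how many cannot be told apart in the counts it gave. Haemoglobin and other red cell genes had 6.83, 2.21, 2.71 and 182 CPM, so the Aire-/- aPD1 library stood apart from the other 3. RNA of the X and Y chromosomes was that of females in all 4 libraries, with Xist at 326, 336, 311 and 319 CPM and 4 Y-linked genes at 0.

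The first question was how large the CD4 compartment was in each spleen. CD4 cells without Foxp3 made up 3.26% (95% exact interval 2.54 to 4.10) of the barcodes in Aire+/+ Isotype Control, 4.16% (3.35 to 5.10) in Aire+/+ aPD1, 6.74% (5.69 to 7.91) in Aire-/- Isotype Control and 5.37% (4.50 to 6.35) in Aire-/- aPD1. Both Aire-/- values were above both Aire+/+ values, although the intervals of both aPD1 libraries overlapped. They cover counting error only, as do all intervals below, and leave out the spread between mice. The share in Aire-/- was 2.07 times that in Aire+/+ under Isotype Control and 1.29 times under aPD1. The ratio of aPD1 over Isotype Control was 1.28 in Aire+/+ and 0.797 in Aire-/-, in opposite directions. Thinned to 1500 UMIs before the gate, the shares were 1.65%, 2.48%, 3.88% and 3.25%, and the order of the libraries did not change.

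B cells filled most of each library, so the share was also taken among gated T cells, that is, CD4 cells without Foxp3, CD8 cells and cells with Foxp3. On that base it was 28.8% (23.1 to 34.9), 32.1% (26.6 to 38.0), 41.1% (35.8 to 46.5) and 35.3% (30.4 to 40.5), in the same order as before. The Aire-/- libraries were again the higher ones, by 1.43-fold under Isotype Control and 1.10-fold under aPD1, and under aPD1 the intervals overlapped. Neither share counts T cells without a UMI of Cd4, Cd8 or Foxp3, some of which may be CD4 cells. Of gated T cells and these together, they were 22.8, 29.4, 23.3 and 23.6%, highest in Aire+/+ aPD1. Their part in the differences between libraries was not tested. Per CD8 cell there were 0.493, 0.583, 0.932 and 0.701 CD4 cells. The numbers of CD8 cells, 140, 151, 148 and 184, and of cells with Foxp3, 31, 35, 50 and 52, show that CD8 cells were about as many in Aire-/- as in Aire+/+ under Isotype Control. In the tumors the same gate took 22, 35, 28 and 34 cells, or 0.749%, 1.58%, 1.51% and 1.64% of barcodes, with the Aire+/+ Isotype Control tumor the lowest. Among gated T cells they were 8% (5.08 to 11.9), 11.2% (7.91 to 15.2), 10.6% (7.14 to 14.9) and 4.22% (2.94 to 5.85), with Aire-/- aPD1 the lowest, where 700 CD8 cells were gated against 124, 198 and 200 in the other 3.

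**Figure D1:**
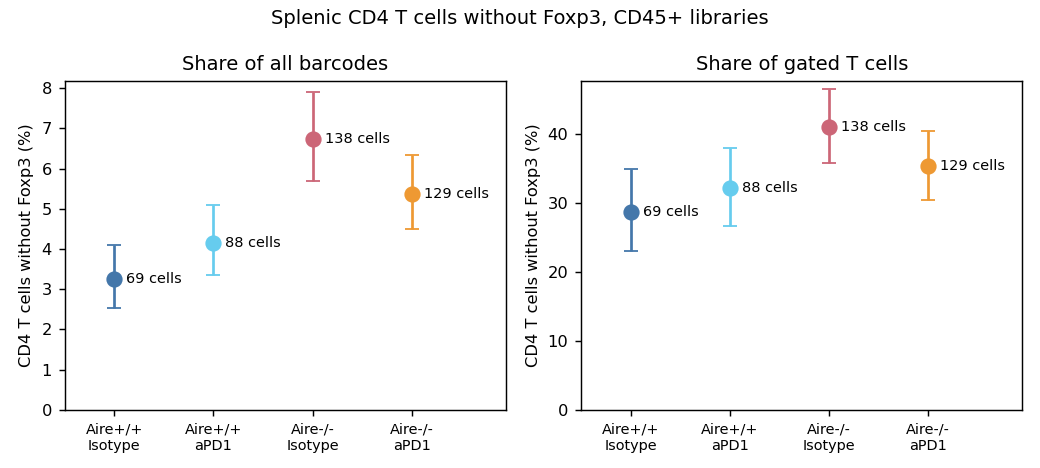
Share of CD4 T cells without Foxp3 in each CD45+ spleen library, in percent of all barcodes (left) and of gated T cells (right). Points are single libraries with the number of cells beside them, bars are exact 95% intervals of counting error, and the highest point in both panels is Aire-/- Isotype Control, at 6.74% and 41.1%.

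The next question was what set these cells apart from the CD8 T cells of the same spleens. UMIs were summed over the CD4 cells and over the CD8 cells of each library, and the sums were compared with edgeR as 4 pairs, a pair being the CD4 and the CD8 sum of 1 library. The genes of the gates were left out. Of 7648 genes tested, 488 (6.38%) were higher and 506 (6.62%) lower in CD4 than in CD8 cells at an adjusted p under 0.05. Most genes of the follicular helper and memory lists were higher in the CD4 cells, while most NK cell markers and genes of ribosomal proteins were lower. Ratios of genes below are the mean log2 ratio over the 4 pairs with its SD, from plain CPM. The scaling used in the fit (TMM) moved the median log2 ratio of all genes tested from 0.22 to 0.01, so a gene that did not differ in the fit sits near the first of these values.

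The helper lineage genes Cd40lg and Zbtb7b did not overlap between the gates. Cd40lg, the ligand with which helper T cells license B cells and dendritic cells, had 153, 108, 176 and 193 CPM in the CD4 cells and 1.08, 0, 2.001 and 4.31 in the CD8 cells, a mean log2 ratio over the pairs of at least 6.04 (adjusted p 3.51e-15, higher in 4 of 4 pairs). Zbtb7b had 45.5, 53.0, 78.5 and 66.4 CPM against 1.08, 0, 0 and 1.72, a mean log2 ratio of at least 4.86 (adjusted p 3.79e-11, 4 of 4). Where a CD8 library had 0 UMIs it was given 3 counts, so such means are lower bounds and are given without an SD. The lowest CD4 library was well above the highest CD8 library for both genes. By cells, a Cd40lg UMI was found in 22.5% of thinned CD4 cells, 0.482% of CD8 cells and 0% of B cells (49.8%, 1.12% and 0.0341% unthinned). Of 17 genes of T cell receptor signalling and the helper lineage, 6 were higher (Zap70, Cd5, Cd6, Cd28, Zbtb7b, Cd40lg) and 4 lower, among them Themis, Thy1 and Txk. Cd5, which dampens receptor signals, had 362, 343, 361 and 489 CPM against 125, 125, 134 and 155 (1.52 ± 0.10, adjusted p 1.69e-10, 4 of 4 pairs). Cd28, the receptor for B7 on antigen-presenting cells, had 298, 223, 256 and 293 against 94.8, 81.2, 112 and 132 (1.36 ± 0.24, adjusted p 1.67e-08, 4 of 4). No CD4 library overlapped a CD8 library for either gene.

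Genes of follicular helper cells were higher together, 9 of 10 tested, with a median log2 ratio of 2.91 beside 0.22 over all genes. Izumo1r, a folate receptor family member found on anergic and regulatory T cells, had 264, 318, 327 and 362 CPM against 24.8, 46.0, 17.0 and 44.8 (3.37 ± 0.65, adjusted p 6.97e-14, 4 of 4 pairs). Pdcd1, which encodes the PD-1 receptor that the antibody blocks, had 97.9, 106, 71.7 and 101 against 15.1, 9.62, 30.0 and 6.03 (2.87 ± 1.21, adjusted p 1.19e-07, 4 of 4). Icos, a costimulatory receptor needed in germinal centres, had 139, 90.6, 129 and 196 against 34.5, 39.5, 28.0 and 37.0 (1.95 ± 0.53, adjusted p 2.23e-09, 4 of 4). These CD4 levels were modest but each was above every CD8 library. Maf, a transcription factor of interleukin-21 and interleukin-4 producers, had 86.5, 68.5, 62.2 and 68.0 CPM and reached at most 2.15 in a CD8 library (adjusted p 2.08e-11, mean log2 ratio at least 4.86, 4 of 4 pairs). Genes shared with regulatory T cells were also higher, 7 of 10, with Itgae alone lower. Tnfrsf4 (OX40), a receptor of activated helper cells, had 107, 122, 71.7 and 90.1 CPM against 0, 6.41, 0 and 1.72 (at least 4.90, adjusted p 6.43e-12, 4 of 4), and Ikzf2, which encodes Helios, had 61.5, 108, 41.9 and 104 against 20.5, 17.1, 20.01 and 21.5 (1.90 ± 0.71, adjusted p 6.31e-07, 4 of 4). Cells with a Foxp3 UMI were left out by the gate, and how many regulatory cells without a counted Foxp3 molecule remained was not tested.

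Memory genes were higher in 13 of 20 and lower in 2, Ccl5 and Nkg7. Itgb1, an integrin chain of memory cells, had 681, 343, 616 and 719.5 CPM against 136, 88.7, 146 and 192 (2.06 ± 0.19, adjusted p 1.42e-13, 4 of 4 pairs). Id2, a regulator of effector differentiation, had 392, 237, 442 and 387 against 109.8, 110.1, 108 and 131 (1.63 ± 0.40, adjusted p 6.11e-10, 4 of 4). Both were higher in every CD4 than in every CD8 library. Of the lists of other helper fates, Th2 had 4 of 4 genes tested higher, Th17 1 of 3 (Rora) and Th1 2 of 9, with 3 lower. Gata3, the Th2 regulator, had 203, 79.6, 153 and 155 CPM against 30.2, 35.3, 35.0 and 34.5 (2.05 ± 0.65, adjusted p 1.41e-09, 4 of 4). Ly6c1 and Ly6a, surface proteins induced by interferon, had 121, 141, 149 and 122 CPM against 21.5, 8.55, 13.003 and 29.3 (3.03 ± 0.92, adjusted p 3.38e-10, 4 of 4) and 428, 332, 657 and 589.9 against 130.3, 72.7, 122 and 113 (2.18 ± 0.33, adjusted p 1.19e-12, 4 of 4). Ly6c2, of the same family, went the other way. It had 0, 59.7, 143 and 9.49 CPM against 555, 578, 725 and 684 (mean log2 ratio -4.53 or lower, adjusted p 1.68e-10, lower in 4 of 4). The interferon list as a whole was split, with 7 of 24 higher and 2 lower. Cell cycle genes were higher in 8 of 9, but few cells carried them, and 48.6% to 90.5% of the Top2a UMIs of a library lay in 1 cell.

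On the lower side stood genes of NK cells and of cytotoxic granules. Ccl5, a chemokine of effector and memory cells, had 772, 566, 479 and 331 CPM in the CD4 cells and 1599, 2332, 3979 and 2508 in the CD8 cells (-2.27 ± 0.93, adjusted p 3.76e-11, lower in 4 of 4 pairs). Nkg7, a protein of cytotoxic granules, had 191, 122, 250.3 and 253 against 783, 804, 836 and 794 (-2.04 ± 0.49, adjusted p 1.15e-13, 4 of 4). Of 8 NK cell markers 7 were lower, among them Gzma, Klrd1 and Eomes. Klra23, an NK receptor, was not counted in the CD4 cells and had 68.9, 69.5, 40.0 and 65.5 CPM in the CD8 cells (mean log2 ratio -3.45 or lower, adjusted p 5.55e-11). Of 15 naive genes 6 were lower, Lef1, Klf2 and Il7r among them, and 1 higher (Igfbp4). Their median was -0.07, and -0.29 after TMM scaling beside 0.01 over all genes. Lef1 had 317, 475, 406 and 368 CPM against 408, 456, 468 and 523 (-0.25 ± 0.24, adjusted p 6.49e-04, lower in 3 of 4 pairs). Tcf7 had 289, 371, 345 and 408 against 354, 309, 267 and 359 (0.13 ± 0.29, adjusted p 0.716, higher in 3 of 4), so a difference was not detectable. Genes of cytosolic ribosomal proteins were lower in 84 of 94 with none higher, a median log2 ratio of -0.29 and -0.51 after TMM scaling. The scaling moved genes together, so list medians are read beside those of all genes (0.22 plain, 0.01 scaled). They were 0.11 and -0.17 for the heat shock list and 0.16 and -0.06 for MHC class I. For interferon they were 0.17 and -0.01, and for mitochondrial genes 0.01 and -0.20. Of 18 mitochondrial genes 9 were lower, of 10 heat shock genes 4 and of 10 MHC class I genes 1, with 0 higher in each. With DESeq2, 186 genes were higher and 241 lower, and without cells that held several markers of B cells or monocytes, or much RNA, 229 and 309.

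A further comparison set the splenic CD4 cells against the cells the same gate took from the tumors, 4 pairs of the spleen and the tumor library of a condition. Of 5349 genes tested with edgeR, 510 (9.53%) were higher and 715 (13.4%) lower in the spleen, together 1225 (22.9%). Most genes of the naive and ribosomal lists were higher in the spleen, and most of the memory, interferon, immediate early and inhibitory receptor lists were higher in the tumor. The tumor sums rest on 22 to 35 cells each. Leaving out Aire+/+ aPD1, Aire-/- Isotype Control or Aire-/- aPD1 brought the number higher down to 312, 327 and 311, DESeq2 to 200 and the exclusion of cells with several other markers or much RNA to 335. That exclusion gave 457 lower.

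Of 14 naive genes 8 were higher in the spleen and 1, Btg1, was lower, and the median log2 ratio was 0.87 beside 0.09 over all genes. Lef1 had 317, 475, 406 and 368 CPM in the splenic and 83.7, 78.3, 50.03 and 49.2 in the tumor cells (2.61 ± 0.49, adjusted p 1.26e-06, higher in 4 of 4 pairs). Tcf7 had 289, 371, 345 and 408 against 55.8, 124, 87.6 and 71.6 (2.11 ± 0.42, adjusted p 4.74e-06, 4 of 4). Igfbp4, a binding protein of insulin-like growth factors found in naive T cells, had 389, 849, 379 and 459 against 50.2, 9.21, 20.8 and 157 (3.80 ± 2.11, adjusted p 1.32e-04, 4 of 4). For all of these the lowest spleen exceeded the highest tumor library. The receptors and regulators that keep naive cells circulating were closer, since Ccr7, which guides cells to T cell zones, had 278, 491, 514 and 479 CPM against 346, 746, 546 and 121 (0.25 ± 1.18, adjusted p 0.771, higher in 1 of 4), and Klf2, which drives their receptors, had 617, 984, 1139 and 1159 against 1289, 1795, 625 and 653 (-0.06 ± 1.05, adjusted p 0.885, 2 of 4). Spleen and tumor overlapped for both. Ribosomal protein genes were higher in the spleen in 65 of 91 and lower in 1, and mitochondrial genes in 12 of 17 with 1 lower.

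Lower in the spleen were 14 of 20 memory genes, with none higher. Lgals1 (galectin-1) had 790.2, 276, 423 and 406 CPM against 1797, 1565, 1914 and 1163 (-1.85 ± 0.60, adjusted p 6.08e-06, lower in 4 of 4 pairs), and Cd44, the adhesion receptor that marks antigen-experienced cells, had 95.6, 46.4, 73.1 and 69.6 against 189.7, 189, 138 and 183 (-1.33 ± 0.51, adjusted p 3.99e-04, 4 of 4). Regulatory genes other than Foxp3 were lower in 11 of 12, inhibitory receptors in 6 of 9 and costimulatory receptors in 6 of 9. Ctla4, an inhibitory receptor for B7, had 61.5, 64.1, 41.9 and 66.4 CPM against 837, 1179, 738 and 568 (-3.80 ± 0.51, adjusted p 2.08e-08, 4 of 4). Tnfrsf4 had 107, 122, 71.7 and 90.1 against 993, 2444, 776 and 828 (-3.54 ± 0.53, adjusted p 2.08e-08, 4 of 4) and Lag3, a receptor that binds MHC class II, 68.3, 104, 35.2 and 115 against 279, 571, 546 and 268 (-2.42 ± 1.15, adjusted p 9.76e-05, 4 of 4). No spleen reached the level of a tumor for these receptors. Follicular helper genes went both ways, with Slamf6, Sh2d1a and Izumo1r higher in the spleen and Pdcd1, Icos and Maf lower. Btla and Tox were the inhibitory genes that were higher.

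Immediate early genes, which answer receptor signals and cell stress, were lower in 14 of 15. Junb had 262, 349, 300.3 and 269 CPM against 3259, 2518, 3511 and 3986 (-3.48 ± 0.45, adjusted p 1.04e-08, lower in 4 of 4 pairs). Nr4a1, a target of the T cell receptor, had 18.2, 48.6, 6.76 and 39.5 against 424, 626, 659 and 765 (-4.78 ± 1.27, adjusted p 2.42e-07, 4 of 4). Tumors and spleens were taken apart in different ways, so tissue and preparation cannot be told apart. Of 25 interferon genes 20 were lower, and Ly6c1 was higher. Isg15, a ubiquitin-like protein made under type I interferon, had 91.1, 75.2, 74.4 and 39.5 CPM against 1027, 1252, 655 and 1190.0 (-3.90 ± 0.77, adjusted p 5.67e-08, 4 of 4). MHC class I genes were lower in 7 of 10. Markers of other cells were higher in the tumor sums too, with 7 of 8 monocyte genes and 4 of 5 NK genes lower in the spleen. The monocyte markers summed to 6434, 672, 2181 and 1083 CPM in the tumor cells, led by Fcer1g, and the NK markers to 2338, 41.4, 321 and 617, and their part in these differences was not tested. The granzyme Gzmc was not counted in the splenic CD4 cells and had 15033, 0, 37.5 and 44.7 CPM in the tumor cells, so nearly all of it came from the Aire+/+ Isotype Control tumor.

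**Figure D2:**
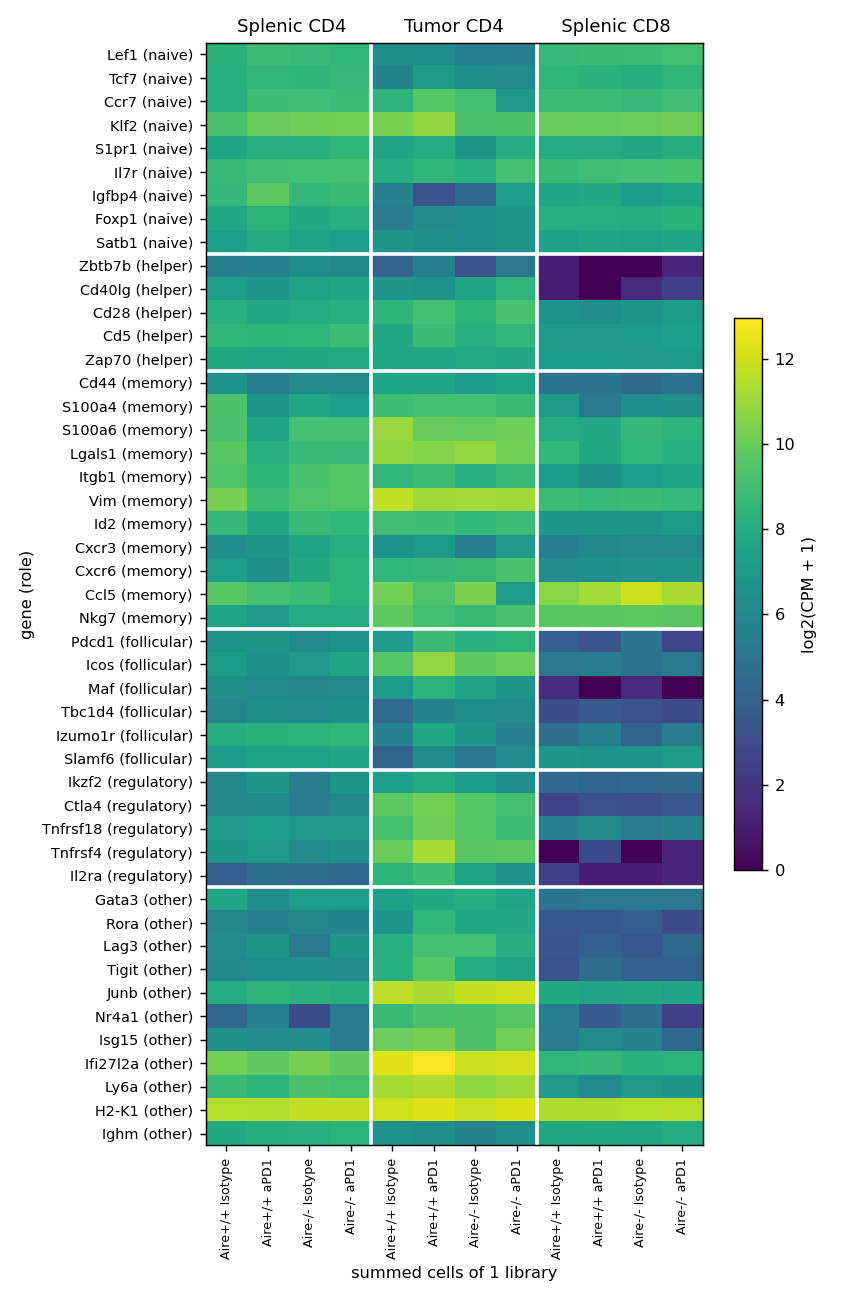
Level of genes of each role in log2(CPM + 1), with 1 column per library for splenic CD4, tumor CD4 and splenic CD8 cells and 1 line per gene, ordered by role. Zbtb7b and Cd40lg are dark in the CD8 columns, where Cd40lg had 1.08, 0, 2.001 and 4.31 CPM, and Lef1 is darkest in the tumor columns, at 83.7, 78.3, 50.03 and 49.2 CPM.

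Among the cells themselves, 6 classes were called by a UMI of at least 2 genes of a short list in cells thinned to 1500 UMIs, which left out 2 of the 424 cells. Memory cells made up 43.5% (31.6 to 56.0), 27.9% (18.8 to 38.6), 39.1% (30.9 to 47.8) and 44.2% (35.5 to 53.2) of the CD4 cells, with exact 95% intervals. Naive cells made up 42.0% (30.2 to 54.5), 55.8% (44.7 to 66.5), 43.5% (35.1 to 52.2) and 41.9% (33.2 to 50.9). The Aire+/+ aPD1 spleen thus had the lowest memory and the highest naive share, and the other 3 had both classes in like shares, though the intervals of all 4 libraries overlapped. Mitochondrial genes held 3.998, 4.997, 3.81 and 4.04% of the UMIs of the CD4 cells, highest in the same library, and their part in these shares was not tested. In splenic B cells, the background for free RNA, the lists gave 0.863, 0.912, 0.751 and 0.946% and 13.9, 15.4, 17.9 and 16.1%, and Ccr7 of the naive list is also a gene of B cells. Unthinned, memory cells were 56.5, 42.0, 52.9 and 53.5% of CD4 cells and 5.82, 4.11, 4.33 and 3.72% of B cells. The median depths were 5489, 4841.5, 5136 and 4545 UMIs in CD4 cells and 4214, 4153, 4433 and 4283 in B cells. Naive cells were then 56.5, 72.7, 65.9 and 58.9% and 44.0, 43.5, 49.9 and 46.4%, so the naive call stood less clear of its background than the memory call. Follicular helper cells made up 13.04, 11.6, 10.1 and 14.0% (B cells 1.01, 0.281, 0.976 and 1.12%) and the regulatory programme 7.25, 16.3, 10.1 and 11.6% (B cells 0, 0, 0.0751 and 0%). Unthinned, these were 30.4, 25.0, 29.0 and 34.1% (B cells 4.89, 3.41, 5.59 and 5.38%) and 27.5, 33.0, 28.3 and 28.7% (B cells 0.0719, 0.209, 0.373 and 0.414%). Thinned, both were small in every library, and the regulatory programme was lowest in Aire+/+ Isotype Control. The interferon class held 24.6, 22.1, 29.7 and 17.1% (B cells 13.5, 14.6, 12.9 and 9.87%). Unthinned, the interferon class held 68.1, 54.5, 63.8 and 53.5% of CD4 and 36.1, 36.6, 35.4 and 30.8% of B cells, and the order of the libraries was not the same as when thinned. Cell cycle genes marked 2.90, 3.49, 1.45 and 0.775% (B cells 0.719, 0.561, 0.526 and 0.355%), on 8 cells in all, and 7.25, 6.82, 5.07 and 2.33% unthinned (B cells 1.51, 1.32, 1.04 and 0.887%).

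In the thinned cells, memory and naive calls were largely exclusive. Of 165 memory and 191 naive cells 18 were both, 10.9% of the first and 9.42% of the second. This depended on depth. Unthinned, memory cells were 56.5, 42.0, 52.9 and 53.5% and naive cells 56.5, 72.7, 65.9 and 58.9%. Some cells of every library must then be in both classes, and that overlap was not counted. The overlaps below are also of thinned cells. Follicular helper cells lay mostly within the memory class, 33 of 51 (64.7% of them and 20% of memory cells). Of these 51, 23 also had the regulatory programme, 45.1% of the first class and 47.9% of the second, so the lists did not split helper from regulatory-like cells. All 8 cells with cell cycle genes were memory cells, and 49 of 422 cells were in no class.

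Against the tumor, the thinned shares of 5 of the 6 classes did not overlap between the tissues. Memory cells were 38.7% ± 7.52 (SD, n = 4 libraries) in the spleens and 82.0% ± 4.10 in the tumors, and naive cells 45.8% ± 6.72 and 10.3% ± 2.86. The follicular helper class held 12.2% ± 1.67 against 38.0% ± 13.2, the regulatory programme 11.3% ± 3.77 against 63.6% ± 14.8 and interferon 23.4% ± 5.27 against 78.5% ± 12.5. Each of the 5 had an exact two-sided permutation p of 0.0286, the smallest that 70 permutations can give, and an adjusted p of 0.0343 over 6 classes when all 8 libraries were permuted freely. The spleen and the tumor of a condition form a pair, and with swaps only within the 4 pairs the p was 0.125 for each of the 5, the smallest that 16 permutations can give, so the shares are a description of 4 pairs that went the same way. The follicular helper difference did not hold when 3 genes were asked for (exact permutation p 0.486, adjusted 0.583). In the tumor CD4 cells, Cxcr5 had 2, 1, 1 and 4 UMIs and Bcl6 had 0, 2, 0 and 1. In thinned splenic CD4 cells these genes were found in 5.21% and 1.18%. The class is thus a call on listed genes and does not show that the tumor cells were follicular helper cells. Cell cycle cells were 2.15% ± 1.26 and 3.39% ± 5.06 (exact permutation p 0.886, adjusted 0.886, spleen and tumor overlapping) when thinned. Unthinned, at median depths of 5489, 4841.5, 5136 and 4545 UMIs in the spleens and 5204, 5304, 6084 and 5598.5 in the tumors, they were 5.37% (2.33 to 7.25 over libraries) and 12.04% (8.82 to 14.3), without overlap (exact permutation p 0.0286, 0.125 within pairs).

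**Figure D3:**
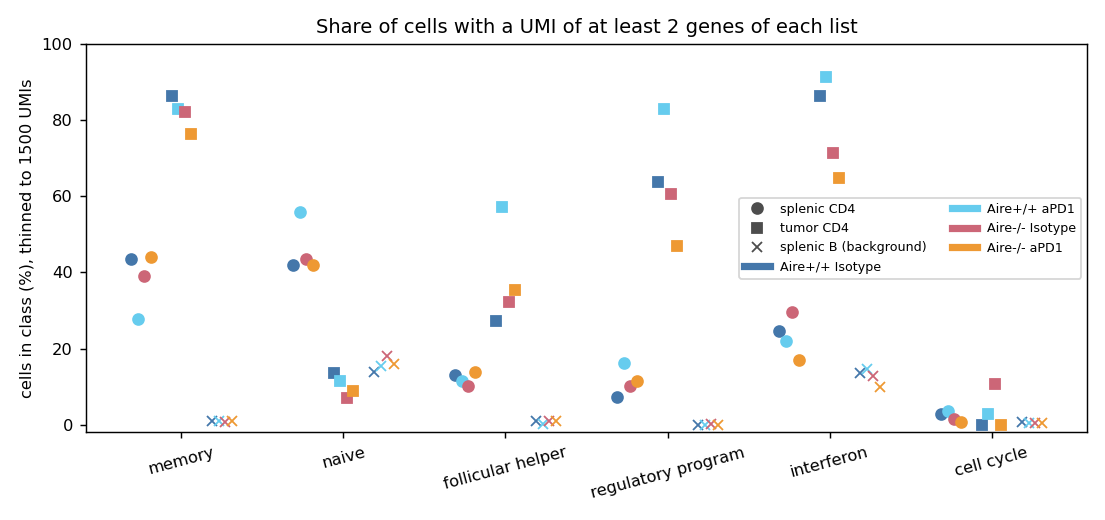
Percent of cells in each class, with every cell thinned to 1500 UMIs, for splenic CD4 (circles), tumor CD4 (squares) and splenic B cells (crosses), 1 point per library colored by condition. In the memory class the splenic CD4 cells lie between 27.9% and 44.2% and the tumor CD4 cells between 76.5% and 86.4%.

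Variation from cell to cell was measured as variance over mean of the thinned UMIs within each library. Among 4662 genes the first was Rn45s, a ribosomal RNA precursor, and the noncoding RNAs Rnr1, Rnr2, Mir6236, Malat1 and Rpph1 were among the first 15, as was Lars2. The others were the memory genes Ccl5, S100a6, Vim and Cxcr6, the class II genes Cd74 and H2-Aa carried by the few cells above, Lag3, and the replication gene 2810417H13Rik. Ccl5 was counted in 6, 7, 15 and 16 thinned cells of the 4 libraries, and 58.1% of its UMIs in the Aire+/+ Isotype Control library came from 1 cell. Its variation thus rested on a minority of cells with many molecules.

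Genotype was compared in 2 pairs, Aire-/- over Aire+/+ under Isotype Control and under aPD1, without a test since each condition had 1 library. Of 2757 genes with at least 50 UMIs over each pair, 29 (1.05%) were at least 1.5-fold apart in the same direction in both pairs, 23 (0.834%) higher and 6 (0.218%) lower in Aire-/-. A further 37 passed the same fold in opposite directions in the pairs, more than in the same direction. The median log2 ratio of all genes was 0.01 and 0.10. Heat shock genes, the chemokine receptor Cxcr3 and some transcripts with near-identical copies stood out among those higher.

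Cxcr3, a chemokine receptor of Th1 and memory cells, had 79.7, 108, 187 and 274 CPM, so that both Aire-/- libraries exceeded both Aire+/+ libraries. Its log2 ratios were 1.23 (from 0.68 to 1.81) and 1.34 (from 0.87 to 1.83) in CD4 cells and 0.56 and 0.17 in CD8 cells. In B cells it had too few UMIs under Isotype Control and a ratio of 0.92 under aPD1, past the fold. Ctsw, a cathepsin of cytotoxic lymphocytes, had 43.3, 97.3, 108 and 163 CPM (1.32 and 0.74). Ctsw was also past the fold higher under aPD1 in both treatment pairs described below (1.17 and 0.59). From 11.4% to 31.6% of its UMIs in a library lay in 1 cell. Ccl5 had 772, 566, 479 and 331 CPM (-0.69 and -0.78), with 58.1, 37.9, 26.6 and 17.7% of its UMIs in 1 cell. Without that cell of each library, an alternative chosen after seeing the data, it had 327, 353, 356 and 275 CPM, ratios of 0.13 (from -0.17 to 0.43) and -0.36 (from -0.68 to -0.04), so the lower level in Aire-/- was not found under Isotype Control without those cells. Memory genes as a list did not move together, as 2 of 17 were higher and 1 lower past the fold and the medians were -0.35 and 0.71. Their sum was 9838, 4593, 7216 and 7036 CPM, lowest in Aire+/+ aPD1.

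Several chaperone genes were higher in Aire-/-. Of 8 heat shock genes tested, 3 passed the fold in both pairs, 7 were above 0 in both (890 of 2757 over all genes), 1 was below 0 in both (524 of 2757), and the medians were 0.61 and 0.42. Dnaja1, a co-chaperone that delivers proteins to Hsp70, had 251, 225, 448 and 376 CPM, log2 ratios of 0.84 (from 0.52 to 1.16) and 0.74 (from 0.40 to 1.09). Hspa8, the constitutive Hsp70, had 1487, 1317, 2436 and 1982 CPM, log2 ratios of 0.71 (from 0.58 to 0.84) and 0.59 (from 0.45 to 0.73). Chordc1, a partner of Hsp90 outside the list, had 72.9, 55.3, 129 and 108 CPM (0.82 and 0.96). In all of these the Aire-/- libraries were the higher ones in each pair. The direction was shared by other cells of the same libraries, since Dnaja1 had ratios of 0.82 and 0.46 in CD8 cells and 1.32 and 1.01 in B cells, and Chordc1 1.12 and 0.87 and 0.71 and 0.69. A difference between genotypes and one between pooled libraries cannot be told apart here.

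Of the 5 genes higher in Aire-/- with the largest smaller ratio, namely BC002163, Cxcr3, Usp19, Mppe1 and Dynlt1b, the first and the last were past the fold in both pairs of CD8 and of B cells too, and Cxcr3 in the 1 pair of B cells that could be measured. Usp19, an enzyme that removes ubiquitin, had 29.6, 30.9, 63.6 and 66.4 CPM, ratios of 1.10 (from 0.19 to 2.11) and 1.10 (from 0.20 to 2.09), with 0.20 and -0.16 in CD8 cells and -0.03 and 0.17 in B cells. Mppe1, a phosphoesterase, had 27.3, 37.6, 56.8 and 75.9 CPM, ratios of 1.06 (from 0.10 to 2.12) and 1.01 (from 0.19 to 1.91), with 0.19 and 0.17 in CD8 cells and 0.03 and 0.10 in B cells. Neither passed the fold in CD8 or B cells. BC002163, a processed pseudogene, had 13.7, 15.5, 96.0 and 88.6 CPM, ratios of 2.81 (from 1.62 to 4.31) and 2.52 (from 1.38 to 3.90), with 1.25 and 2.81 in CD8 cells and 2.18 and 2.53 in B cells. Dynlt1b, a dynein light chain on chromosome 17, had 41.0, 46.4, 90.6 and 90.1 CPM (1.14 and 0.96, and 1.52 and 1.41 in CD8 cells, 1.63 and 1.36 in B cells). Rnaset2b, a ribonuclease encoded on the same chromosome, was lower, with 182, 197, 70.3 and 87.0 CPM (-1.37 and -1.18, -1.24 and -1.02 in CD8 and -1.33 and -1.28 in B cells). Dynlt1b and Rnaset2b have near-identical copies in the genome, and how their reads were shared between copies was not tested. BC002163, Dynlt1b and Rnaset2b each split the genotypes in all 3 cell types. The interferon list had 2 of 19 genes past the fold, both higher. They were Igtp, a GTPase that acts on vacuoles of intracellular pathogens, with 91.1, 92.8, 152 and 152 CPM, and Ly6a, with 428, 332, 657 and 589.9. The list medians were 0.36 and 0.19, while no naive gene of 13 and no MHC class I gene of 9 passed. The other genes that were lower, Rbmx, Dut, Pcna and Klhdc2, did not pass the fold in CD8 or B cells in either pair. In the tumor CD4 cells 9 of the 29 genes could be measured in both pairs and 0 passed the fold the same way.

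The count depended on depth and gate. It was 17 of 694 genes tested when cells were thinned to 1500 UMIs, 174 with a minimum of 20 UMIs and 10 with 100. Of the 17 found with thinned cells 5 were among the 29. Of the 21 found without cells holding several other markers or much RNA 6 were among the 29.

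Treatment was compared as aPD1 over Isotype Control in Aire+/+ and in Aire-/-, pairs made of the same 4 libraries as the genotype pairs. Of 2373 genes, 15 (0.632%) were past 1.5-fold the same way in both, 9 (0.379%) higher and 6 (0.253%) lower, and 15 were past it in opposite directions. Medians over all genes were -0.08 and 0.02. Ikzf2, the Helios gene of regulatory and chronically stimulated cells, had 61.5, 108, 41.9 and 104 CPM, ratios of 0.82 (from 0.11 to 1.55) and 1.32 (from 0.68 to 1.98). Lag3 had 68.3, 104, 35.2 and 115 CPM, ratios of 0.60 (from -0.09 to 1.32) and 1.71 (from 1.05 to 2.42), with 50, 51.1, 15.4 and 57.5% of the UMIs in 1 cell. Without that cell of each library it had 34.5, 51.6, 30.0 and 49.4 CPM, ratios of 0.58 (from -0.42 to 1.63) and 0.72 (from -0.12 to 1.58). Both aPD1 libraries were above both Isotype Control libraries for these genes, for Lag3 with few UMIs and intervals that reached 0 once those cells were left out. Klf13, a transcription factor of T cells, had 63.8, 119, 67.6 and 112 CPM (0.90 and 0.73) and Hnrnph3, a splicing factor, 68.3, 115, 66.3 and 111 (0.75 and 0.74), while neither passed the fold in CD8 or B cells.

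The 6 genes lower under aPD1 included Pgam1, Etfb, Pcna and Rtp4. Pgam1, an enzyme of glycolysis, had 148, 75.2, 122 and 77.5 CPM (-0.98 and -0.65), Etfb, which passes electrons to the respiratory chain, 121, 59.7, 96.0 and 56.9 (-1.02 and -0.75) and Pcna, the clamp of DNA polymerase, 141, 70.7, 75.8 and 45.9 (-0.997 and -0.72). Rtp4, an interferon-induced gene, had 82.0, 50.8, 89.3 and 38.0 CPM (-0.69 and -1.23). Of the Pcna UMIs, 32.3, 34.4, 21.4 and 17.2% lay in 1 cell. For each of these 4 both aPD1 libraries were lower than both Isotype Control libraries. Memory genes had medians of -1.02 and -0.01 and naive genes 0.57 and 0.03, so in Aire+/+ the memory list was lower and the naive list higher under aPD1, and in Aire-/- both lay near 0. None of 16 memory or 13 naive genes passed the fold in both pairs. Without cells holding several other markers or much RNA 2 genes passed, with thinned cells 3, with a minimum of 20 UMIs 129 and of 100 UMIs 0, and none of the 15 was among the 2 or the 3. In the tumor CD4 cells 7 of the 15 could be measured in both pairs and 2 passed the fold the same way, Pgam1 (-0.96 and -0.95) and Gramd3 (0.60 and 1.28, and 0.89 and 0.62 in the spleen).

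**Figure D4:**
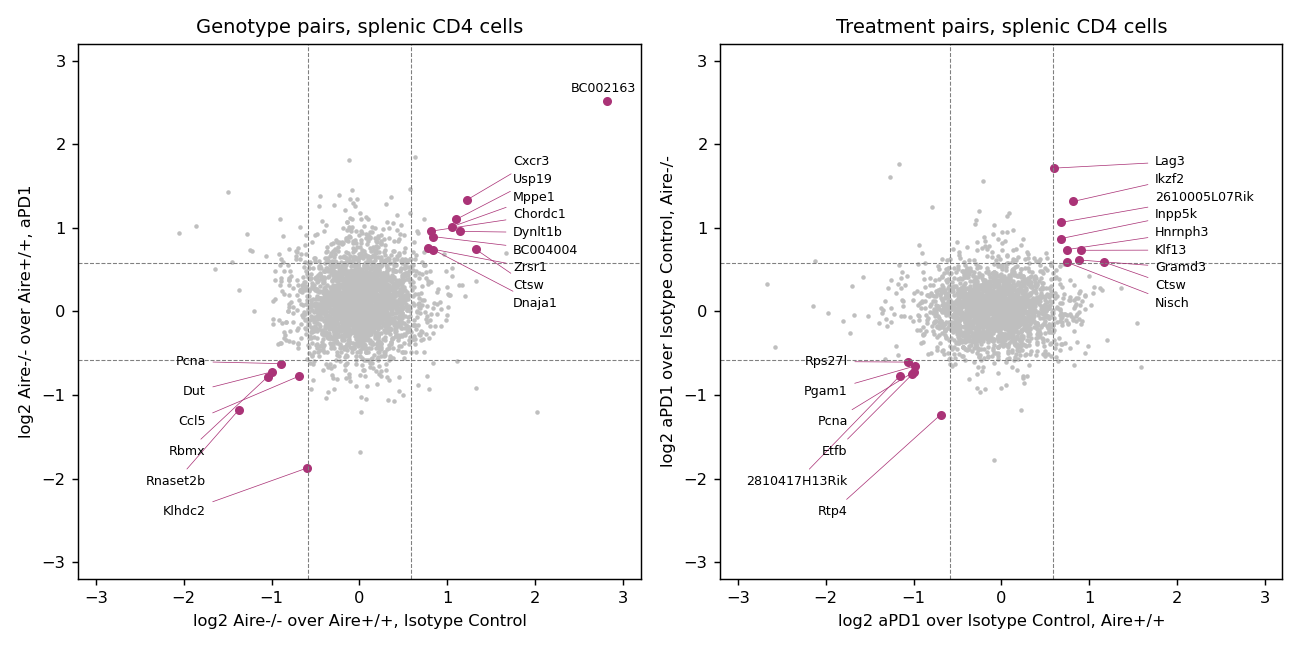
Log2 ratio of each gene in the splenic CD4 cells in both genotype pairs (left, 2757 genes) and both treatment pairs (right, 2373 genes), with the first pair on the horizontal and the second on the vertical axis. Dashed lines mark 1.5-fold, filled points with names are genes past it the same way in both pairs (up to 10 per direction), BC002163 lies at 2.81 and 2.52, and 4 genes in each panel fall beyond the axes.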

How the data were processed

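Each deposited table holds raw UMI counts, genes by cell barcodes, with no scaling applied by the authors, who made it with Cell Ranger from Chromium single-cell libraries and, per the labels, GRCm38. The labels and the study's section on single-cell RNA name a kit for the 3' end of RNA, and its section on T cell receptors one for the 5' end. Each table had 25127 rows, 37 of them mitochondrial. The 13 rows named only by an Ensembl identifier were matched to symbols. Another 27 rows name vectors and held at most 4.06e-05% of a library's UMIs, and were left out. Rows of one symbol were summed, giving 24469 symbols. The T cell receptor constant genes and variable segments have no rows. The members and the gene lists were chosen with earlier results of these data known.

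Python 3.11.15 with numpy 2.4.6, scipy 1.17.1, pandas 2.3.3 and matplotlib 3.10.9 and R 4.3.3 with edgeR 4.0.16 and DESeq2 1.42.0 were used. UMIs were summed over the gated cells of a library and divided by all UMIs of those cells. CD8 cells were gated like the CD4 cells with Cd8a or Cd8b1 in place of Cd4, and B cells by Cd79a without Cd3 and Cd4. In edgeR, quasi-likelihood fits with TMM factors, filterByExpr and a block for condition (tumor) or library (CD8) were run, and p-values were adjusted by the Benjamini-Hochberg method over all genes tested. The fits were tested on simulated counts. Shares have exact Clopper-Pearson and ratios conditional exact 95% intervals. A side at 0 UMIs was given a floor of 3 counts per library. Cells thinned to 1500 UMIs were drawn with seed 0.

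Named genes are list members with at least 50 UMIs over the 4 sums and the defining markers of other cell types, up to 10 genes per direction with the largest smaller ratio of the pairs for genotype and treatment, 12 per direction with the largest fold change in each fit, and the 15 most variable genes. Alternatives were barcodes with at least 200 genes and at most 20% mitochondrial UMIs, at least 2 Cd3 UMIs, no cells with 2 or more B cell or monocyte markers or over 2.5 times the median depth, other totals, thinned cells, other minimums, DESeq2, no filter, no block and each condition left out. Leaving out cells with at least 10 Cd74 UMIs, and totals without Rn45s, Rnr1, Rnr2, Mir6236, Lars2 and Rpph1, were chosen after seeing the data, as was leaving out the cell of each library with the most Ccl5 or Lag3.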

Additional observations from a re-analysis of the deposited data

Results flagged for a closer look

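Among 29 quantities compared over the 4 spleen or the 4 tumor libraries, 3 had a library far from the others. The share of CD4 cells in the naive class was 42.0, 55.8, 43.5 and 41.9%, with Aire+/+ aPD1 apart at 55.8%. The summed level of red blood cell genes in the CD4 cells was 6.83, 2.21, 2.71 and 182 CPM, with Aire-/- aPD1 apart at 182. That of platelet genes was 0 in the other 3 libraries and 1.58 CPM in Aire-/- aPD1, which was 1 UMI of Itga2b, and with 3 libraries at 0 any single molecule meets this measure. Chance sets about 1 in 20 groups apart by this measure, and none of these differences was tested.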

How the results depend on the processing

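The gene counts depended on the minimum of UMIs, the depth and the gate. With cells thinned to 1500 UMIs, 17 genes passed the fold in both genotype pairs and 3 in both treatment pairs, with a minimum of 20 UMIs 174 and 129, and with 100 UMIs 10 and 0, as the number of genes tested changed too. Without cells holding 2 or more other markers or over 2.5 times the median depth, 2 passed for treatment, 335 genes were higher and 457 lower than in the tumor, 229 higher and 309 lower than in CD8 cells, and the log2 fold change of Bcl2l11 over CD8 cells reversed to 0.0178. With DESeq2, 200 genes were higher than in the tumor, and 186 higher and 241 lower than in CD8 cells. Without the cell of each library with the most Ccl5, chosen after seeing the data, the log2 ratio of Ccl5 between genotypes under Isotype Control reversed to 0.126. Leaving out each condition gave 311 to 419 genes higher than in the tumor.

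The share of barcodes was 1.89%, 2.60%, 3.86% and 3.21% without cells holding other markers or much RNA, and 1.65%, 2.48%, 3.88% and 3.25% with barcodes thinned. Among gated T cells, the thinned shares were 19.3%, 25.7%, 31.3% and 27.3%, and the share in Aire-/- Isotype Control was 50.3% without cells holding other markers or much RNA. With 3 genes asked for, the follicular helper share was 5.13% in the spleens and 8.83% in the tumors, a difference of -3.71 points in place of -25.8 (exact permutation p 0.486, adjusted 0.583). The causes were not tested. Depth limits what single cells show, since 1465 UMIs was the lowest count of a CD4 cell, and with 1 library per condition no spread between mice can be given.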

Other observations

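Other gene groups of the splenic CD4 cells were also compared. Among homing genes tested against the tumor, S1pr4, Itga4 and Itgb7 were higher in the spleen and Cxcr4, Gpr183 and Selplg lower. Of 12 cytokine receptor genes, Il6ra, Il6st and Il27ra, which carry signals of the interleukin-6 family, were higher in the spleen, and Il2ra, Il2rb and Ifngr1 lower. Il6ra had 70.6, 106, 127 and 114 CPM against 16.7, 32.2, 29.2 and 49.2 in the tumor (1.78 ± 0.42, adjusted p 2.22e-04, higher in 4 of 4 pairs) and 58.2, 59.8, 74.02 and 72.4 in CD8 cells (0.64 ± 0.25, adjusted p 0.0246, 4 of 4). Spleen and tumor did not overlap, while the Aire+/+ Isotype Control CD4 cells lay below the CD8 cells of both Aire-/- libraries. Of 11 survival genes, Mcl1, Bcl2l11, Bcl2l1 and Pim1 were lower than in the tumor and Gimap3 higher. Bcl2, which blocks mitochondrial apoptosis, had 153, 243, 152 and 189.8 CPM against 228, 307, 269 and 227 in CD8 cells (-0.50 ± 0.26, adjusted p 1.74e-05, lower in 4 of 4 pairs). Of 10 Th1 genes, 5 were lower than in the tumor and none higher, and of 9 tested against CD8 cells, Ifng and Cxcr3 were higher and Ccl5, Nkg7 and Hopx lower.

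Under aPD1, 6 of 7 heat shock genes were below 0 in both pairs (652 of 2373 over all genes), with medians of -0.17 and -0.25, and none passed the fold. Of 15 mitochondrial genes 14 were above 0 in both treatment pairs (523 of 2373 over all genes), and none passed. The summed cell cycle genes were 736, 382, 356 and 403 CPM in the 4 libraries. Without cells that held at least 10 Cd74 UMIs the sum in Aire-/- aPD1 was 117. Rn45s had 44068, 41642, 29532 and 29568 CPM in the CD4 cells, 41875, 41071, 33629 and 35985 in CD8 cells and 37858, 35337, 31893 and 29555 in B cells, and both Aire-/- libraries were below both Aire+/+ libraries in all 3 cell types.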
